A study of Mus musculus with 4 samples.

Results

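Interferon cells are described here among the unconventional αβ T cells (UTCαβ) of mouse sarcomas, T cells that carry an αβ receptor but neither CD4 nor CD8. They were chosen by 5 interferon-induced genes: a barcode with at least 1 UMI of the T cell gene Cd3e counted as an interferon cell when its summed UMIs of Ifit1, Ifit3, Rsad2, Cmpk2 and Usp18 came to at least 3. A UMI, or unique molecular identifier, marks 1 captured transcript molecule. This rule found 4074 interferon cells among the 21342 cells kept after filters on depth and mitochondrial content (19.1%), out of 32525 deposited barcodes. The 12807 cells with a sum of 0 were compared with them within each library, and the 4461 cells with a sum of 1 or 2 were put in neither class. Because the cells were selected on these 5 genes, the levels of the 5 genes are given as a description and without a test.

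The study asked how UTCαβ differ between mice with and without the G-CSF receptor, which is encoded by Csf3r and needed for normal numbers of neutrophils. Sarcomas were induced in male mice with the carcinogen 3-methylcholanthrene, and UTCαβ were sorted as CD45+ cells with TCRβ and without CD11b, TCRγδ, CD4 or CD8. Csf3r+/+ and Csf3r-/- mice gave 2 libraries each of 3′ transcript ends in droplets, which the methods call biological replicates. Csf3r is deleted in every cell of the Csf3r-/- mice. These libraries alone therefore cannot tell apart an effect inside T cells and an effect of the missing neutrophils. The study reports that Csf3r was not detected in Csf3r+/+ UTCαβ. It also reports that transferred neutrophils reversed much of the altered polarization of Csf3r-/- UTCαβ. Neither the labels nor the methods used here give the age of these mice. The libraries of a genotype are told apart by the number after each barcode, but which mouse it stands for is not known. Values of the 4 libraries are given below in the order Csf3r+/+ library 1, Csf3r+/+ library 2, Csf3r-/- library 1 and Csf3r-/- library 2. In that order, the kept cells numbered 2843, 6458, 5215 and 6826, with 9827411, 23753033, 14166978 and 16241257 UMIs. Between them the libraries shared 486 barcode sequences (1.52%), which 134 of the interferon cells carried. Csf3r itself had 1, 3, 2 and 1 UMIs in all kept cells, so its counts could not check the genotype labels.

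Interferons are secreted proteins by which cells signal the presence of viruses, foreign nucleic acid or inflammation. Type I interferons bind the receptor made of IFNAR1 and IFNAR2, whose kinases JAK1 and TYK2 phosphorylate transcription factors, STAT2 among them. These join IRF9 and bind interferon-stimulated response elements in the promoters of interferon-stimulated genes, which include antiviral effectors and also STAT2, IRF7 and IRF9 themselves. Type II interferon (IFN-γ), made by activated T cells and NK cells, acts through another receptor, and it shares many target genes with type I interferons. Of the genes of the rule, Ifit1 and Ifit3 encode proteins that bind viral RNA or its partners, Rsad2 encodes viperin, Cmpk2 a nucleotide kinase next to Rsad2, and Usp18 an enzyme that removes ISG15 from proteins and dampens the receptor.

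Some promoters of genes that mark these cells are shown, chosen because they hold the letters of such an element. A promoter is here the stretch from 250 bases before to 50 bases after the start site, as given by RefSeq (GRCm38.p6). The letters searched were GAAANNGAAA on both strands, where matches may overlap each other. Each line gives 70 bases on the gene's own strand, 5′ to 3′, with matches in capitals.

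Ifit1: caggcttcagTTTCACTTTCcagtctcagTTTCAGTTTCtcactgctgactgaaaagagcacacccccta
Ifit3: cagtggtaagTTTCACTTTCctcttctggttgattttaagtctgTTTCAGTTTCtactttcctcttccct
Rsad2: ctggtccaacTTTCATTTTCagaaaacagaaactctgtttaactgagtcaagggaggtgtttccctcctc
Cxcl10: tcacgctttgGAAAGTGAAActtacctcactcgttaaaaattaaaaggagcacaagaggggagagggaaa
Isg15: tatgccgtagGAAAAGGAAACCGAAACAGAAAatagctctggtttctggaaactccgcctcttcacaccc

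The lines come from chr19:34640775-34640844 (Ifit1, plus strand), chr19:34583363-34583432 (Ifit3, plus), chr12:26456513-26456582 (Rsad2, minus), chr5:92349043-92349112 (Cxcl10, minus) and chr4:156200837-156200906 (Isg15, minus). Ifit1 and Ifit3 each had 2 matches in their promoter, Rsad2 and Cxcl10 had 1, and Isg15 had 3, which overlap. The window of Ifit3b, a near copy of Ifit3, held the same 70 letters as that of Ifit3. The 300 bases of Cmpk2 had 0 matches, as had the promoters of Oasl1 and Ifit2, which rose strongly; of the 15 genes with the largest rise, 8 of the 10 with a promoter held a match. Of all 27025 promoters listed, 3.99% held a match. Among the genes found higher in interferon cells below, 16.2% of the 450 with a promoter held one, and among those found lower 2.21% of 181 did. A match describes letters and is not a shown binding site.

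The label was checked against its markers. Besides the 5 genes of the rule, Cxcl10, which encodes a chemokine that draws CXCR3-bearing T cells and was not used by the rule, had 713, 1076, 321 and 1110.3 CPM in interferon cells and 45.4, 65.8, 49.9 and 101 CPM in cells of sum 0. CPM are UMIs of a gene per 1000000 UMIs, both summed over the cells of 1 library and state. Cxcl10 was thus higher in interferon cells of every library, and its lowest value there lay above its highest value in cells of sum 0. The 11 T cell genes listed summed to 7298, 5469, 7916 and 6992 CPM in interferon cells and to 7925, 5645, 8227 and 8219.7 CPM in cells of sum 0, and all 11 had UMIs in every library and state. Cd3g was the most abundant of them throughout. Genes of the receptor's constant regions were not analysed here. Cd4, Cd8a and Cd8b1 together had 14.2, 9.43, 31.8 and 39.2 CPM in interferon cells and 16.3, 13.5, 34.2 and 32.0 CPM in cells of sum 0.

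Interferon cells made up very different shares of the 4 libraries. They were 735, 1108, 1904 and 327 cells, or 25.9%, 17.2%, 36.5% and 4.79% of the kept cells, with exact 95% binomial intervals of 24.3 to 27.5%, 16.2 to 18.1%, 35.2 to 37.8% and 4.30 to 5.32% that cover counting error only. The highest and the lowest share both came from Csf3r-/- sarcomas. The Csf3r+/+ libraries had a mean share of 21.5% ± 6.15 (SD, n = 2) and the Csf3r-/- libraries of 20.7% ± 22.4 (SD, n = 2), and the difference of -0.855 percentage points was small beside the gap between the Csf3r-/- libraries (two-sided exact permutation test, p = 1). With 2 libraries against 2, the smallest p this test can give is 0.333.

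Depth differed between the libraries and between the states. The median interferon cell had 3204, 3607.5, 2561.5 and 2511 UMIs, against 2981, 2858, 2100.5 and 1929 UMIs in cells of sum 0. Each cell was therefore also thinned to 1500 UMIs, for which 63, 139, 541 and 975 cells were too shallow. The shares were then 16.8%, 9.34%, 25.3% and 3.20%, in the same order of libraries as before, and the difference between genotypes turned to 1.19 percentage points. In barcodes without a Cd3e UMI, which lie outside the rule, the share with a sum of 3 or more followed the same order, with 27.5%, 14.7%, 29.3% and 5.50%. The part of RNA free in the droplets in these shares was not tested.

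**Figure D1:**
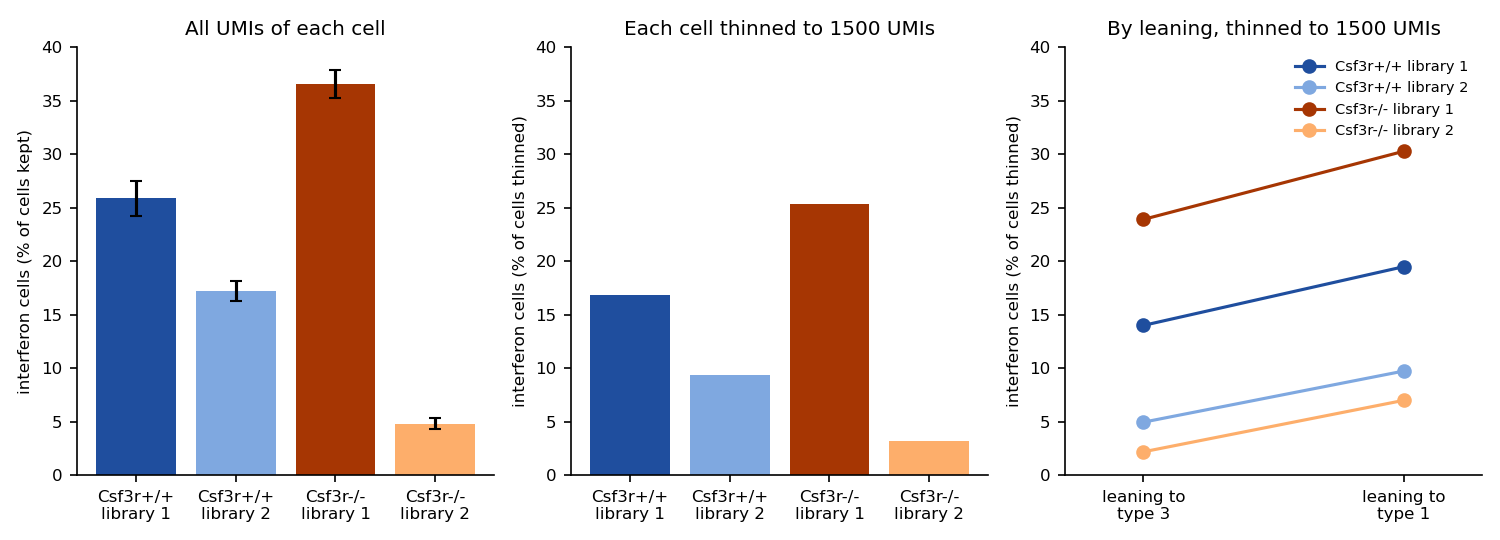
Share of interferon cells in each library, from all UMIs (left, % of kept cells, with exact 95% binomial intervals), with each cell thinned to 1500 UMIs (middle, bars) and by leaning after thinning (right, each line 1 library). Csf3r-/- library 1 was highest and Csf3r-/- library 2 lowest in each panel, and every line rises from cells leaning to type 3 to cells leaning to type 1.

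The sum of the 5 genes formed a range without a gap at the threshold. Its median in interferon cells was 7, 6, 6 and 5 UMIs, and 38.2%, 33.3%, 28.7% and 20.5% of them had 10 UMIs or more. Of all interferon cells, 4.84% owed their sum to 1 of the 5 genes, 27.4% to 2, 33.9% to 3, 20.9% to 4 and 13.0% to all 5. Just inside the threshold, cells with a sum of 3 had 429.6, 342, 709 and 751 CPM of Isg15, and cells with a sum of 2, just outside, had 259, 211, 616 and 457 CPM. In cells with a sum of 10 or more, Isg15 had 1952, 1222, 2112 and 2175 CPM.

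Ifit3 and Ifit1 gave most of the summed UMIs. Ifit3 held 38.3%, 35.9%, 37.2% and 31.6% of them and was found in 89.0%, 88.4%, 88.7% and 73.7% of the interferon cells. Ifit1 held 29.6%, 30.8%, 33.3% and 37.3% and was found in 83.5%, 80.4%, 86.1% and 79.5%. Usp18 was found in 72.4%, 71.9%, 60.3% and 55.4%, Rsad2 in 40.8%, 41.1%, 38.1% and 42.2%, and Cmpk2 in 36.6%, 30.96%, 35.8% and 24.8% of them. In cells of sum 0 all 5 genes are absent by the rule. Ifit3 (chromosome 19, 34583531 to 34588731) shares 17.4% of the 31-base words in the last 300 bases of its transcripts with Ifit3b, so reads of both could have been given to either or lost.

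**Figure D2:**
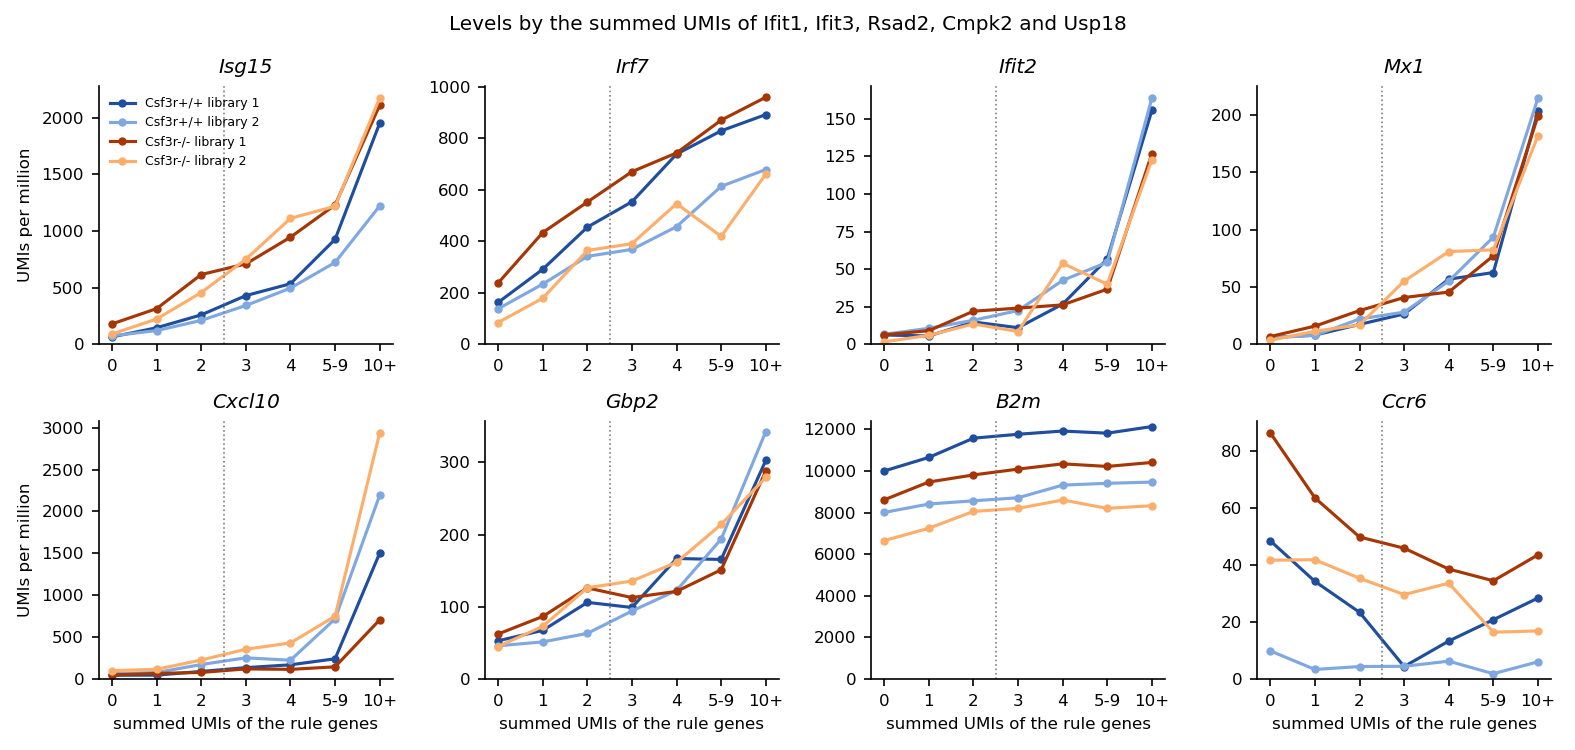
Levels of 8 genes (CPM of the cells in a bin) by the summed UMIs of Ifit1, Ifit3, Rsad2, Cmpk2 and Usp18, with 1 line for each library and a dotted line at the threshold. The interferon-induced genes Isg15 and Mx1 rise over the whole range, while Ccr6 is highest in cells of sum 0 in 3 libraries.

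To describe the other genes, UMIs were summed over the interferon cells and over the cells of sum 0 of each library and tested by edgeR's quasi-likelihood method, with the library as a block and the 5 genes of the rule left out. A higher sum can come from more cells with a transcript or from more transcripts per cell, and these cannot be told apart in the sums. Of 9923 genes tested, 594 (5.99%) were higher and 237 (2.39%) lower in interferon cells (adjusted p under 0.05, Benjamini-Hochberg). Many of the genes below belong to the same response as the 5 genes of the rule, so their rise accompanies the choice of cells. The error of a log2 fold change is its standard error (SE). Lists of genes are described by their counts and their median log2 fold change, which over all genes tested was -0.012. DESeq2 called 430 genes higher and 104 lower. Without TMM factors, which correct for composition, 509 were higher and 453 lower, and the median of all genes moved to -0.073.

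Of 41 antiviral effectors tested, 40 were higher and 0 lower in interferon cells, with a median log2 fold change of 2.26. The largest rise was that of Ifit3b, a paralog of Ifit3 and likewise uncertain, with 155, 121, 157 and 88.0 CPM in interferon cells and 3.61, 3.30, 8.02 and 2.31 CPM in cells of sum 0 (log2 fold change 5.07 ± 0.14 SE, adjusted p = 3.69e-12). Mx1, a dynamin-like GTPase that blocks viruses, had 111, 118, 107 and 98.5 CPM against 5.73, 5.68, 6.72 and 3.42 CPM (log2 fold change 4.45 ± 0.11 SE, adjusted p = 3.33e-12). The 4 libraries lay close together in Mx1 among interferon cells, Csf3r-/- library 2 was lowest in both states, and the states did not overlap. Isg15, the ubiquitin-like protein that is attached to other proteins (chromosome 4, 156199424 to 156200818), had 1203, 794, 1399 and 1314 CPM in interferon cells and 64.9, 74.5, 179.7 and 90.7 CPM in cells of sum 0. Csf3r-/- library 1 was highest in both states (log2 fold change 3.66 ± 0.15 SE, adjusted p = 1.75e-10).

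Other effectors with a large rise were Oasl1 (log2 fold change 3.95), a relative of the oligoadenylate synthetases, Ifit2 (3.90), Ifit1bl1 (3.13), Phf11a (2.77) and Oas3 (2.68), which makes the activator of RNase L. Phf11a shares 68.1% of its 31-base words with its paralogs, and its value is uncertain. Among the effectors of highest level, Ifi27l2a had a log2 fold change of 1.77 and the membrane proteins Ms4a4b and Ms4a6b of 1.52 and 1.30. In the cells described below as leaning to type 1 and to type 3, Ms4a4b had 0.64 and 2.62 and Ms4a6b had 0.70 and 1.80. Ifi27 was the 1 effector tested that did not pass, with a log2 fold change of -0.26 (adjusted p = 0.0651). The plot of the genes with the largest changes shows each of them by library. In interferon cells Mx1 ranged there from 98.5 to 118 CPM, Iigp1 from 95.8 to 203 CPM and Cxcl10 from 321 to 1110.3 CPM. The share of interferon cells ranged from 4.79% to 36.5%.

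**Figure D3:**
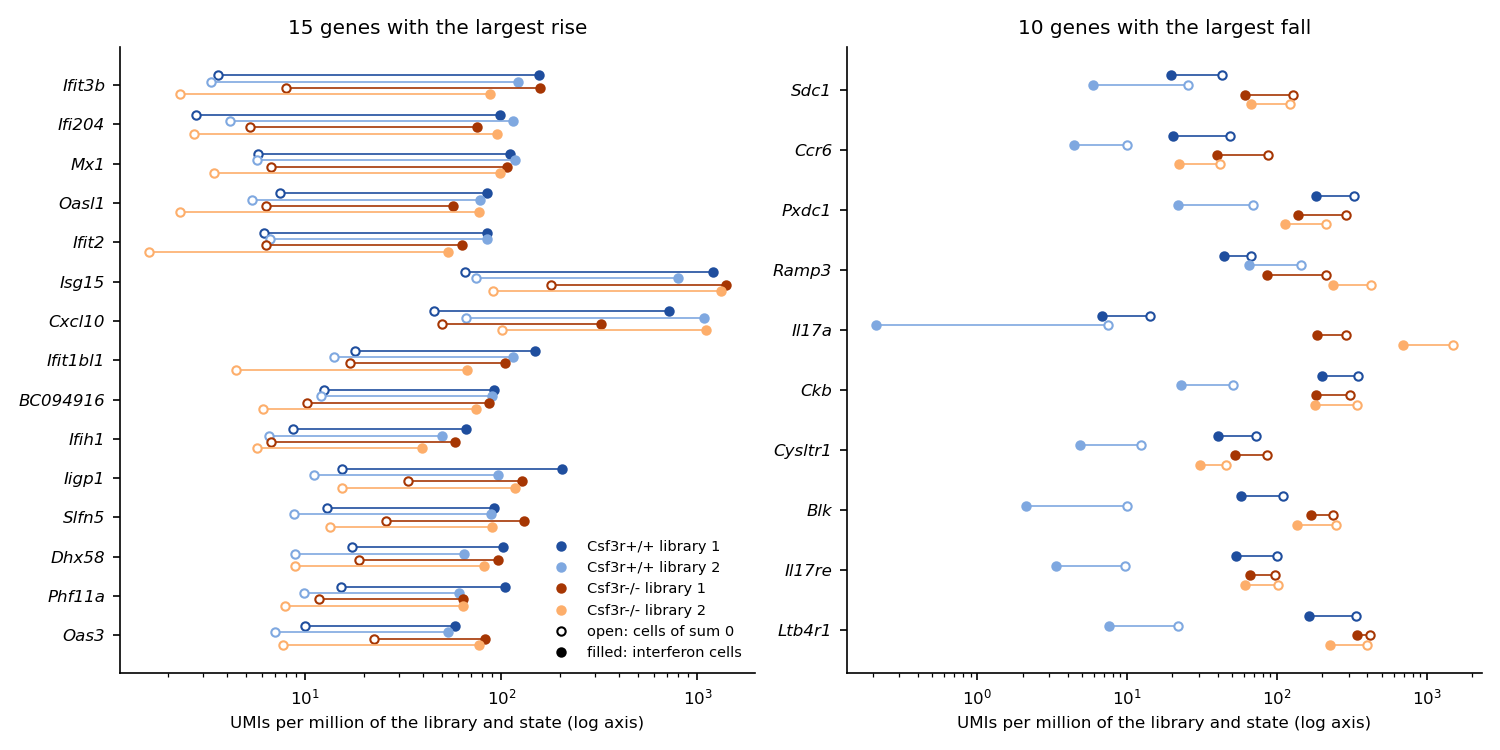
Levels of the 15 genes with the largest rise (left) and the 10 with the largest fall (right) in CPM (log axis), with filled points for interferon cells, open points for cells of sum 0 and a colour for each library. By the way they were chosen, every rising gene is higher and every falling gene lower in interferon cells of all 4 libraries. Il17a spans from 0.210 CPM in interferon cells of Csf3r+/+ library 2 to 1490.2 CPM in cells of sum 0 of Csf3r-/- library 2.

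All 13 genes tested from the list of sensors of foreign nucleic acid were higher, with a median of 1.85. The list includes Ifi47 (1.85), which is a GTPase and is counted again with the GTPases below. The calls of Mb21d1 (0.72, adjusted p = 0.0445) and Tmem173 (0.29, adjusted p = 0.0308) ended both without cells that hold markers of other lineages (5.33% of all genes higher) and in cells of 2000 to 5000 UMIs (5.52% higher). In either case 11 of the 13 listed genes were higher. Ifi204, a DNA sensor of the PYHIN family, had 98.1, 114, 75.1 and 94.7 CPM in interferon cells and 2.76, 4.15, 5.20 and 2.70 CPM in cells of sum 0 (log2 fold change 4.82 ± 0.15 SE, adjusted p = 1.45e-11). The RNA helicases Ifih1 (MDA5), Dhx58 (LGP2) and Ddx58 (RIG-I) had log2 fold changes of 3.01, 2.78 and 1.71. Ifi203 and Mndal, neighbours of Ifi204 in the same family, had 1.69 and 1.51 and share 17.8% and 33.7% of their words with relatives. BC094916, on chromosome 1 near this family, had 91.4, 89.5, 86.2 and 74.6 CPM in interferon cells against 12.5, 11.98, 10.2 and 6.12 CPM (log2 fold change 3.13), and shares 25.9% of its words with Ifi209.

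Of 20 regulators of the pathway tested, 16 were higher and 0 lower, with a median of 0.72. Irf7, the transcription factor that amplifies the response, had 796, 569, 851 and 485 CPM in interferon cells and 162, 138, 238 and 84.4 CPM in cells of sum 0 (log2 fold change 2.23 ± 0.09 SE, adjusted p = 2.02e-10). Its states did not overlap, and Csf3r-/- library 1 was highest in both. Nmi, which binds STAT proteins, and Irf1 had log2 fold changes of 1.02 and 0.68. Other parts of the pathway, added here after their values were seen, also rose, Stat2 by a log2 fold change of 2.12 and Irf9 by 1.17, while the kinases Jak1 and Tyk2 each had a value of 0.13 that did not pass (adjusted p = 0.262 and 0.719).

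Of 5 receptor genes tested, Ifnar2 (log2 fold change 0.33, adjusted p = 0.0158) and Il10rb (0.38, adjusted p = 0.0018), a chain shared by interferon-λ and IL-10 receptors, were higher, and Ifngr2, the second chain of the IFN-γ receptor, was lower (-0.78, adjusted p = 0.000212). Ifnar1 had 47.9, 187, 84.8 and 138 CPM in interferon cells and 35.0, 194, 86.0 and 123 CPM in cells of sum 0, a difference smaller than that between libraries.

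Of 12 interferon genes, Ifng alone passed the filter on low counts. Ifng (chromosome 10, 118441046 to 118445892) had 250.2, 382, 65.9 and 134 CPM in interferon cells and 147, 269.9, 26.0 and 67.4 CPM in cells of sum 0, a rise in each library (log2 fold change 0.90 ± 0.10 SE, adjusted p = 9.93e-06). The levels of the states overlap, since the Csf3r+/+ libraries were higher than the Csf3r-/- libraries in both. The other 11 genes, which encode type I and λ interferons, had 0 UMIs in the interferon cells of 3 libraries, and 2 of them had UMIs in Csf3r+/+ library 2.

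The interferon-induced GTPases, which attack the membranes of microbes inside cells, were higher in 16 of 17 cases and lower in 0, with a median of 1.90. Iigp1 had 203, 95.8, 128 and 118 CPM in interferon cells and 15.5, 11.1, 33.4 and 15.4 CPM in cells of sum 0 (log2 fold change 2.94 ± 0.19 SE, adjusted p = 2.30e-08). Gbp2 had a log2 fold change of 2.06, Igtp of 1.69, Gbp7 of 1.74 and Gbp4 of 1.45. Of 17 genes known mainly as targets of IFN-γ, some of which are also in that list, 12 were higher and 0 lower (median 0.74). The class II genes H2-Aa, H2-Ab1, H2-Eb1 and Cd74, added after their values were seen, had log2 fold changes of 0.65 to 0.74 that did not pass, and without cells holding markers of other lineages, described below, the values were -0.39 to -0.078.

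Of 20 genes of class I antigen presentation, 19 were higher and 0 lower, with a median of 0.55. B2m, the light chain of class I molecules, had 11950.0, 9289.9, 10279.6 and 8293 CPM in interferon cells and 10005, 8011, 8617 and 6658 CPM in cells of sum 0 (log2 fold change 0.33 ± 0.05 SE, adjusted p = 0.000357). Psmb8, a subunit of the immunoproteasome, had a log2 fold change of 0.58. H2-K1 (0.36) and H2-D1 (0.27), the heavy chains, share words with each other and with H2-Q genes, so their split is uncertain.

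Among Ly6 and Schlafen genes, 10 of 11 were higher and 1, Ly6g5b, was lower (median 1.19). Slfn5 had 91.4, 88.1, 131 and 89.9 CPM in interferon cells and 12.9, 8.75, 25.8 and 13.4 CPM in cells of sum 0 (log2 fold change 2.88, adjusted p = 3.02e-10). Ly6c2 had a log2 fold change of 1.39, Ly6a, which encodes Sca-1, of 1.19 and Slfn2 of 1.04. Ly6c2 and Ly6a share 50.1% and 29.2% of their words with relatives. In the cells described below as leaning to type 1 and to type 3, Ly6c2 had 0.57 and 2.03. Of 9 chemokine genes, 6 were higher and 0 lower (median 0.85). Cxcl10 had a log2 fold change of 3.64 ± 0.16 SE, Xcl1 of 0.85 and Ccl5 of 0.58 (adjusted p = 0.00184).

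**Figure D4:**
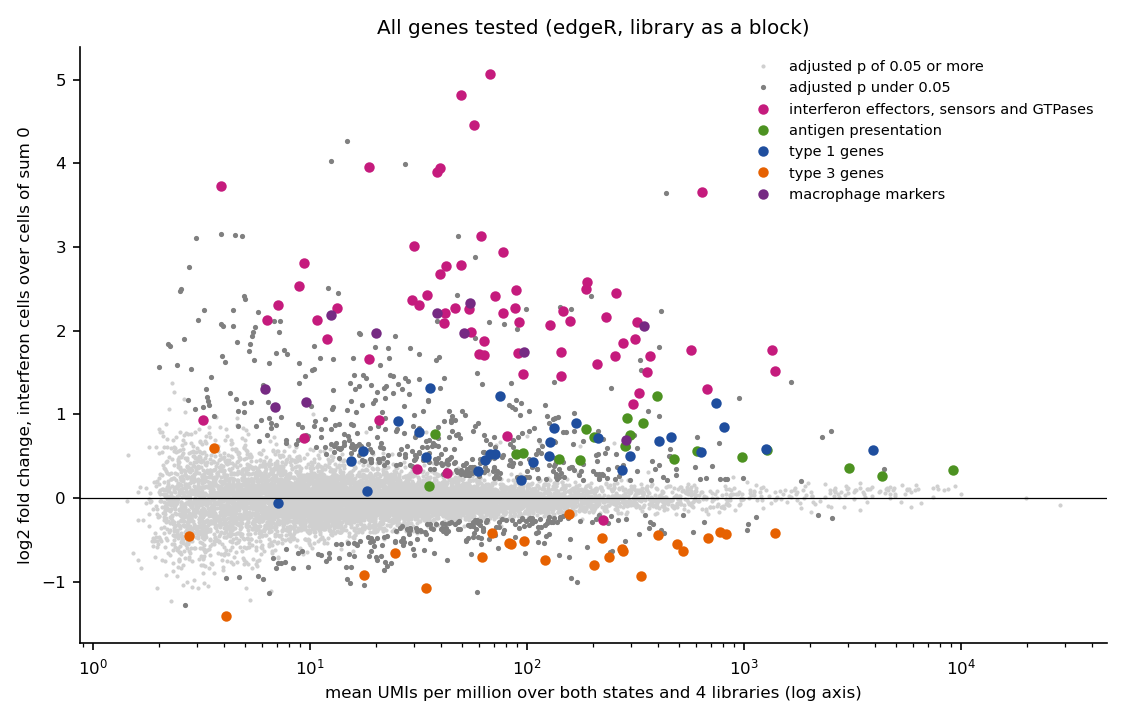
Log2 fold change of each of the 9923 genes tested (interferon cells over cells of sum 0) by mean level (log axis), with lists of genes in colour. The effectors, sensors and GTPases lie mostly between 1 and 5, type 3 genes lie mostly below 0, and macrophage markers lie between 0 and 3.

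Markers of macrophages moved with the interferon state. The 15 macrophage genes summed to 342, 1260.2, 589.9 and 3053 CPM in interferon cells and to 243, 295, 293 and 1479.6 CPM in cells of sum 0, with Ctss or Apoe as the most abundant gene. All 11 tested were higher, with a median of 1.97. Apoe had 8.61, 507, 67.6 and 1473 CPM in interferon cells against 8.91, 65.5, 11.7 and 634 CPM (log2 fold change 2.06, adjusted p = 4.51e-05), and it was not higher in Csf3r+/+ library 1. There Csf1r, Adgre1, Ms4a7, Cd14 and Itgam were at 0 in the interferon cells. Cells with at least 2 UMIs of other lineages' markers were 2.59%, 8.94%, 5.88% and 20.8% of the interferon cells and 3.04%, 6.02%, 3.47% and 11.8% of the cells of sum 0.

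Without those cells, 5.33% of 9799 genes were higher and 2.49% lower. There 7 macrophage genes could be tested, of which 1 was higher and 0 lower, and Apoe and Lyz2 had log2 fold changes of -0.20 and -0.21. The cells had been removed by their UMIs of these same markers, so this loss follows from the filter. The 1 gene still higher was Ctss (log2 fold change 0.57), which the filter did not use. The interferon-induced genes were as high as before, with 40 of 41 effectors higher (median 2.26), and Isg15 at 3.69, Cxcl10 at 3.66 and Ifi204 at 4.98 on the log2 scale. For the chemokines 3 of 6 were then higher and 1 lower, and Cxcl16 and Cxcl9 no longer passed the filter on low counts. Of 2 neutrophil, 4 B cell and 1 dendritic cell genes tested over all cells, 0 were higher or lower; no fibroblast gene passed the filter. Of 6 genes of NK cells and innate lymphoid cells, 4 were higher (Fcer1g, Tyrobp, Ncr1 and Klre1, log2 fold changes 0.98, 0.98, 0.92 and 0.80; Ncr1 was lower in Csf3r+/+ library 2, with 17.0 against 20.7 CPM), with 0.84, 0.78 and 0.82 for the first 3 without cells of other lineages.

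UTCαβ of these tumors range from type 1 cells, which express the factor T-bet, granzymes and IFN-γ, to type 3 cells, which express RORγt and IL-17. Many of the genes used for both lists are named by the study from these cells, so the lists are no independent evidence of their direction. Of 29 type 1 genes tested, 18 were higher and 0 lower in interferon cells, with a median of 0.56. Gzmb, which encodes granzyme B, had 1483, 1276, 401 and 733 CPM in interferon cells and 802, 793, 145 and 298 CPM in cells of sum 0 (log2 fold change 1.14 ± 0.10 SE, adjusted p = 5.50e-07). Ccl5, Nkg7, a protein of cytotoxic granules, and Klrd1, the receptor chain CD94, had log2 fold changes of 0.58, 0.59 and 0.68; Klrd1 was lower in Csf3r+/+ library 2, with 634 against 694 CPM.

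Of 26 type 3 genes, 0 were higher and 23 lower (median -0.55). Il17a had 6.74, 0.210, 185 and 691 CPM in interferon cells and 14.2, 7.45, 288 and 1490.2 CPM in cells of sum 0, a fall in each library across levels that differ widely between them (log2 fold change -0.94 ± 0.16 SE, adjusted p = 0.00105). Ccr6, a chemokine receptor of type 3 cells, had 20.2, 4.40, 39.8 and 22 CPM against 48.6, 9.90, 86.5 and 41.7 CPM (log2 fold change -1.07, adjusted p = 1.52e-06). Cxcr6, S100a4, Tmem176a and Tmem176b had log2 fold changes between -0.48 and -0.40; the last 2 genes overlap on opposite strands.

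Of the 10 genes with the largest fall, 6 are on the type 3 list. The 10 included Blk (-0.74), a kinase of the Src family, Il17re (-0.71), an IL-17 receptor chain, the leukotriene receptors Ltb4r1 (-0.71) and Cysltr1 (-0.74), and Ckb (-0.80), a creatine kinase. Sdc1, which encodes syndecan-1, had 19.5, 5.87, 61.1 and 66.9 CPM in interferon cells and 43.1, 25.4, 127 and 122 CPM in cells of sum 0, the largest fall (log2 fold change -1.12 ± 0.13 SE, adjusted p = 1.42e-05). Pxdc1 and Ramp3, part of adrenomedullin receptors, fell by 1.01 and 0.95 on the log2 scale. In the cells described below as leaning to type 1, Pxdc1, Ckb, Cysltr1, Il17re and Ltb4r1 turned to values of 0.15 to 0.66. Of these, Ltb4r1 alone passed there (edgeR adjusted p = 0.0161).

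Each cell was then placed by its UMIs, after thinning to 1500, of 12 type 1 and 12 type 3 genes; a cell with more of the former leaned to type 1. This is a range and not a cell type, and 2.89%, 2.47%, 6.16% and 11.1% of the interferon cells lay within 2 UMIs of the boundary. The interferon state was still set here from all UMIs of a cell. Cells leaning to type 1 were deeper, with medians of 3517, 3194, 2958 and 2756 UMIs. Those leaning to type 3 had 2790.5, 2196, 2211 and 1995 UMIs. Among interferon cells with a leaning, 63.0%, 97.0%, 33.0% and 48.0% leaned to type 1, against 40.3%, 89.5%, 14.1% and 16.7% of the cells of sum 0. The share was higher in interferon cells of all 4 libraries, by 22.7, 7.45, 18.9 and 31.3 percentage points, a mean of 20.1 ± 9.90 (SD, n = 4; two-sided exact permutation of signs, p = 0.125, the smallest that 4 libraries can give).

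Seen from the leanings, 19.5%, 9.72%, 30.3% and 6.98% of the cells leaning to type 1 were interferon cells after thinning, and 14.0%, 4.94%, 23.9% and 2.17% of those leaning to type 3. The difference was 5.49, 4.78, 6.37 and 4.81 percentage points (mean 5.36 ± 0.747, SD, n = 4; exact permutation p = 0.125). Without thinning it was 12.9, 11.4, 18.1 and 8.27 percentage points, and as a ratio of the thinned shares it was 1.39, 1.97, 1.27 and 3.22, so the libraries were close together on the thinned difference and not on these scales. Interferon cells were thus found in both leanings of every library.

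The comparison of states was repeated within each leaning, a choice made after seeing the data. The genes used for the leaning stayed in these fits and are left out of the lists below. In cells leaning to type 1, 384 of 8419 genes (4.56%) were higher and 101 (1.2%) lower, and in cells leaning to type 3, 353 of 8119 (4.35%) were higher and 54 (0.665%) lower. Of the higher genes 258 were called in both, which is 67.2% of the first and 73.1% of the second set. Of the lower genes 5 were called in both, 4.95% and 9.26% of each set. All these counts keep the genes used for the leaning. Of 41 effectors, 40 were higher in either leaning, with medians of 2.09 and 2.42, and the other, Ifi27, was lower in cells leaning to type 1 (-0.33, adjusted p = 0.0103) and had -0.26 in cells leaning to type 3 (adjusted p = 0.153); Isg15 had log2 fold changes of 3.37 and 3.87, Mx1 of 4.18 and 4.77, and Cxcl10 of 4.30 and 3.31.

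The genes of both types that had not been used for the leaning were followed within it. In cells leaning to type 1, 1 of 17 type 1 genes was higher and 0 lower (median 0.046), and 3 of 11 type 3 genes were higher and 0 lower (median 0.36). In cells leaning to type 3, 5 of 11 type 1 genes were higher and 0 lower (median 0.64), and 0 of 14 type 3 genes were higher and 3 lower (median -0.21). Ltb4r1 had 0.63 and -0.24 on the log2 scale in the leanings to type 1 and type 3 (adjusted p = 0.0161 and 0.0661), and Sdc1 had -0.052 and -0.71 (adjusted p = 0.987 and 5.54e-06). Xcl1 had 0.046 and 1.48 (adjusted p = 0.86 and 2.30e-10).

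Several other calls made over all cells ended within a leaning. Of the genes listed as sensors, with the GTPase Ifi47 among them, 10 of 13 were higher in cells leaning to type 1 and 7 of 9 in cells leaning to type 3. Aim2, at 0.18 and 0.41, was among those that did not pass. Of the regulators, 13 of 20 were higher in cells leaning to type 1 (median 0.46) and 12 of 20 in cells leaning to type 3 (median 0.72), with 0 lower in either. Irf8 and Jak2 were among those that passed in neither. The receptor genes Il10rb (0.12 and 0.10, adjusted p = 0.612 and 0.896), Ifnar2 (0.30 and 0.090, adjusted p = 0.134 and 0.93) and Ifngr2 (0.13 and -0.43, adjusted p = 0.942 and 0.11) passed in neither, while Ifngr1, the first chain of the IFN-γ receptor, was lower in both (-0.22 and -0.24). Of the genes of NK cells and innate lymphoid cells, 1 of 6 was higher in cells leaning to type 1 (median 0.15) and 3 of 5 in cells leaning to type 3 (median 1.38). Fcer1g had 0.21 and 1.91 in the leanings to type 1 and type 3 (adjusted p = 0.0574 for the former), Klre1 0.085 and 1.38 (0.704 for the former), and Ncr1 0.32 in cells leaning to type 1 (0.361). The class II genes passed in cells leaning to type 1 with log2 fold changes of 1.57 to 1.70, where 10 of 10 macrophage genes were also higher (median 2.67), and did not pass in cells leaning to type 3, with 0.17 to 0.44, where 4 of 5 macrophage genes were higher (median 1.09). The part of macrophage transcripts in these values was not tested. Whether the leanings differ in these values was not tested.

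**Figure D5:**
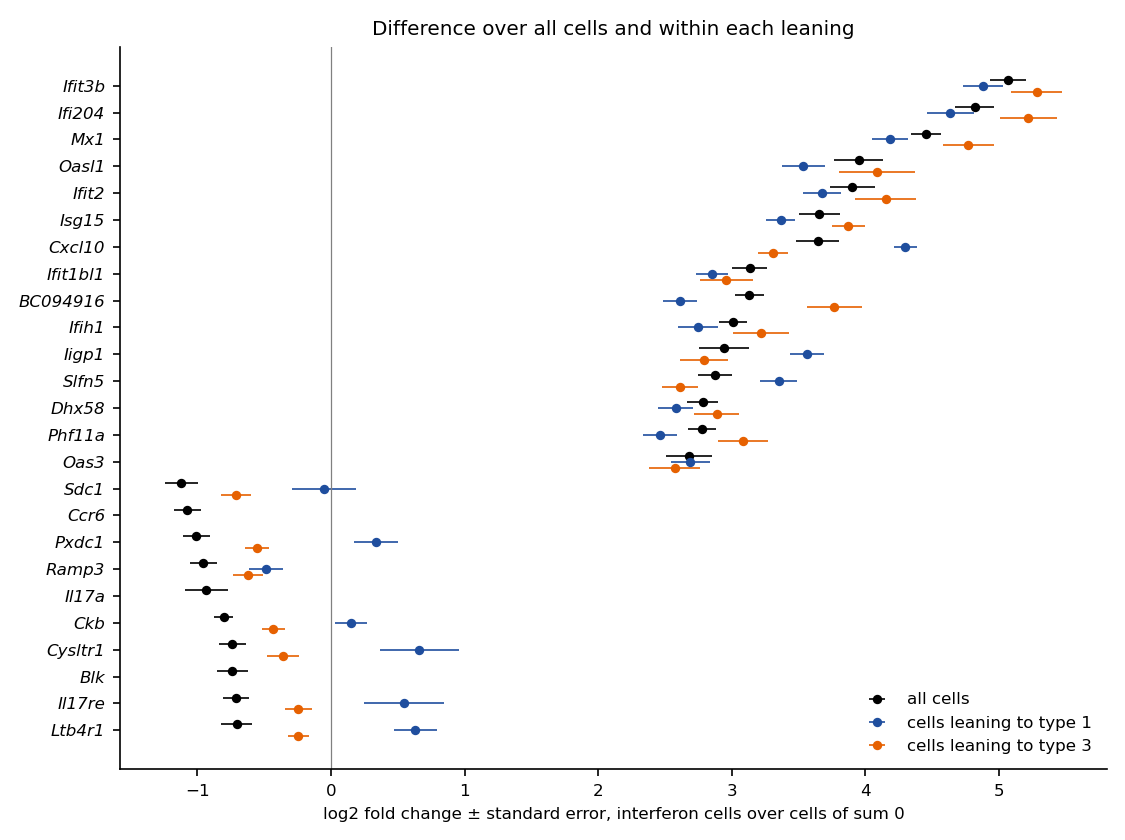
Log2 fold change with its standard error, interferon cells over cells of sum 0, for the 15 genes with the largest rise and the 10 with the largest fall, over all cells and within cells leaning to type 1 or to type 3. The rising genes lie above 2 in all 3 fits, while Pxdc1, Ckb, Cysltr1, Il17re and Ltb4r1 lie above 0 in cells leaning to type 1; Ccr6, Il17a and Blk were used for the leaning and are shown over all cells alone.

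Other states of T cells were followed with lists of their genes. Of 14 genes of naive and recirculating cells, 5 were higher and 0 lower (median 0.21), among them Cd27, a costimulatory receptor, with a log2 fold change of 0.49. In cells leaning to type 1, 1 of 14 was higher and 2 were lower (median 0.031), and in cells leaning to type 3, 3 of 11 were higher and 0 lower (median 0.17); Cd27 had 0.022 and 0.17 there and passed in neither (adjusted p = 0.968 and 0.849). Of 17 activation genes, 3 were higher and 2 lower (median -0.027), with Cd69, which holds T cells in tissue, at 0.67, Egr1 at 0.41, Cd40lg at -0.36 and Il2ra at -0.33; within the leanings Cd69 was higher in both (0.51 and 0.80), Egr1 passed in cells leaning to type 1 (0.43, adjusted p = 0.00615) and not in cells leaning to type 3 (0.11, adjusted p = 0.908), and Cd40lg and Il2ra passed in neither. Of 10 checkpoint genes, Cd160 was higher (0.68, adjusted p = 0.0148, though 250.3 against 260.2 CPM in Csf3r+/+ library 2) and Pdcd1, which encodes PD-1, lower (-0.53, adjusted p = 0.000522). In cells leaning to type 1, 3 of 9 were lower and 0 higher (median -0.37), and in cells leaning to type 3, 1 of 7 was higher and 0 lower (median 0.12). Cd160 had -0.045 in cells leaning to type 1 and 1.11 in cells leaning to type 3 (adjusted p = 0.857 and 0.00425), and Pdcd1 -0.64 and -0.30 (adjusted p = 0.0228 and 0.111). Of 16 cell cycle genes 0 were higher or lower over all cells, with Hmgb2 at -0.054 and Stmn1 at -0.022. In cells leaning to type 1, however, 8 of 15 were lower and 0 higher (median -0.38), among them Hmgb2 (-0.36, adjusted p = 0.000344) and Stmn1 (-0.49, adjusted p = 0.0114), while in cells leaning to type 3 0 of 14 passed (median 0.093). In cells of 2000 to 5000 UMIs 4 of 14 were lower and 0 higher (median -0.33), in a fit that called 5.52% of all 9262 genes higher and 2.09% lower. Of 15 stress genes, Dnajb1 (0.34) and Btg2 (0.23) were higher and 0 lower; within the leanings Dnajb1 passed in cells leaning to type 3 alone (0.32) and Btg2 in neither. Of the 11 T cell genes, Cd2 was higher (0.50), and Lat (-0.29) and Thy1 (-0.23) were lower; within the leanings Cd2 passed in cells leaning to type 3 alone (0.34), and Lat and Thy1 in neither.

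Between genotypes, the interferon cells alone were compared with 2 libraries against 2. Of 9709 genes, 1 was higher and 8 were lower in Csf3r-/- interferon cells, 0.0927% in all, and Csf3r-/- libraries differed widely in their number of such cells. The cells compared also differed in leaning, with 63.0% and 97.0% leaning to type 1 in Csf3r+/+ and 33.0% and 48.0% in Csf3r-/- libraries. The part of this in the values below was not tested. Socs1, a feedback inhibitor of JAK kinases (chromosome 16, 10782240 to 10785536), had 78.3 and 95.4 CPM in Csf3r+/+ and 11.2 and 12.4 CPM in Csf3r-/- interferon cells (log2 fold change -3.05 ± 0.28 SE, adjusted p = 0.038). In cells of sum 0 it had 72.3 and 66.8 against 8.45 and 5.41 CPM, so the gap stood in both states. Ccr1, a chemokine receptor, had 2.62 and 3.35 against 42.3 and 53.6 CPM in interferon cells (3.81, adjusted p = 0.038), and 5.09 and 2.30 against 47.0 and 72.8 CPM in cells of sum 0. When interferon cells were taken from a sum of at least 2, 0 genes were higher and 1 was lower in Csf3r-/- interferon cells. Ccr1 then no longer passed, and at most 1 of the lower genes named here and below did.

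The other named genes were lower in Csf3r-/- interferon cells. Scand1 had 149 and 172 against 9.87 and 6.69 CPM (log2 fold change -4.34), C1qbp, a mitochondrial protein, had 118 and 149 against 21.8 and 16.3 CPM (-2.92), and the pseudogene Rpl21-ps4 (-4.18) and Gm17430 (-3.09) share 59.3% and 21.9% of their words with other genes. The gaps stood in cells of sum 0 as well. There Scand1 had 154 and 179 against 9.54 and 8.27 CPM, and C1qbp 147 and 157 against 23.8 and 16.7 CPM. Rpl21-ps4 had 69.4 and 111 against 7.80 and 8.35 CPM, and Gm17430 129 and 142 against 13.4 and 15.9 CPM. Of the interferon lists, 0 effectors, sensors or GTPases passed; Isg15 had a log2 fold change of 0.33 ± 0.25 SE (adjusted p = 0.737) and Cxcl10 of -0.43 ± 0.61 SE. The number of genes called changed strongly with the processing, and without either Csf3r-/- library it was 0, though 1 library then stands for that genotype and is taken to vary like the others.

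Whether the difference between states differed between genotypes was tested with an interaction term. edgeR called 0 of 9923 genes (0%), with 446 at an unadjusted p under 0.05, and DESeq2 called 0, with 82. In simulated counts with log2 changes of 2, the interaction fit recovered 47.5% of the changed genes by edgeR and 42.5% by DESeq2. A count of 0 therefore does not show that the states differ alike in both genotypes. For Isg15 the interaction was -0.41 on the log2 scale, for Mx1 0.088 and for Cxcl10 -0.91 (adjusted p = 0.286), where a negative value is a smaller rise in Csf3r-/- sarcomas.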

How the data were processed

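UTCαβ from sarcomas of Csf3r+/+ and Csf3r-/- mice were profiled with the 10x 3′ v2 kit, 2 libraries of each genotype. According to the methods, the authors aligned reads to mm10 with Cell Ranger, reduced them to UMIs, and merged the 2 libraries of each genotype by its aggregate function; whether this equalised reads between libraries is not stated. The deposited values are raw UMI counts for 27998 genes. The submitters' processing notes also name R 3.4.4 and Seurat 2.3.4, which were not used to make these counts as far as the sources state. No column of the matrices was left without a library (0 unused).

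Kept cells had at least 200 genes, at most 20000 UMIs, at most 10% mitochondrial UMIs and at least 1 UMI of Cd3e; the study gives a larger number of cells after its filter on Cd3e, and the cause was not tested. The study's further limits of 3500 (Csf3r+/+) and 4000 (Csf3r-/-) genes were an alternative. No doublet caller was run. Libraries were separated by the number after the barcode, which the labels do not tie to an animal.

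UMI counts were summed per library and state, and edgeR 4.0.16 in R 4.3.3 fitted them by quasi-likelihood after filterByExpr and TMM scaling; Benjamini-Hochberg adjustment covered every gene tested, and the threshold was 0.05. Errors of log2 fold changes are standard errors (SE). The library was a block between states; genotypes were compared without a block. The 5 genes of the rule were left out of the fit and its library sizes. A log2 fold change from the fit rests on a small prior count. Where single values were compared, exact permutation tests over libraries were used (scipy 1.17.1). Thinning drew 1500 UMIs per cell without replacement; 1718 kept cells were shallower. Fits were tested on simulated data.

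Named genes were the 15 with the largest rise and the 10 with the largest fall among those past the threshold, changed the same way in all 4 libraries and with a mean of at least 30 CPM; of each list, up to 4 members of highest level that passed, or up to 2 where none passed; and up to 5 genes each way between genotypes. The members and lists were chosen with earlier results of these data known.

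The alternatives tried were no filter on low counts, DESeq2 1.42.0, no TMM factors, sums of at least 2 or 5, cells of 2000 to 5000 UMIs, cells without markers of other lineages (under 2 UMIs), no thinning, the leaning without Cxcr6, Icos and Ccl5, all barcodes with or without Cd3e, the upper limit on genes, each library left out, and a replicate block from the barcode's number. Fits within a leaning and without shared barcodes were added after seeing the data. Gene places are from GENCODE vM21 (GRCm38), and promoters from RefSeq (GRCm38.p6). Some genes of the lists are counted but not reported by name here.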

Additional observations from a re-analysis of the deposited data

Results flagged for a closer look

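Barcodes without a UMI of Cd3e lie outside every comparison between states, and they were looked at separately. Of 741, 5047, 1953 and 3309 such barcodes in Csf3r+/+ libraries 1 and 2 and Csf3r-/- libraries 1 and 2, 27.5%, 14.7%, 29.3% and 5.50% had at least 3 summed UMIs of Ifit1, Ifit3, Rsad2, Cmpk2 and Usp18. The exact 95% binomial intervals were 24.3 to 30.9%, 13.8 to 15.7%, 27.3 to 31.4% and 4.75 to 6.33%, and cover counting error only. Their median depth was 2653, 2521, 1839 and 1777 UMIs. What these barcodes are was not tested.

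Stmn1, which encodes the microtubule regulator stathmin and is high in dividing cells, was lower in interferon cells than in cells of sum 0 in both Csf3r+/+ libraries (299.97 against 417 and 84.1 against 116 CPM) and higher in both Csf3r-/- libraries (149 against 136 and 169 against 109 CPM). The interaction of genotype and state was 0.78 on the log2 scale and did not pass (edgeR adjusted p = 0.25). In cells of 2000 to 5000 UMIs the difference between states over all libraries was -0.81 (adjusted p = 0.00478).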

How the results depend on the processing

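Depth and replication limit these results: the median kept cell had 1983 to 3055 UMIs, 2 libraries stand for each genotype, and which mouse the number after the barcode stands for is not known. The comparison of states called 831 genes, 534 with DESeq2 and 578 to 861 with each library left out, and in the added fits 485 in cells leaning to type 1, 407 in cells leaning to type 3 and 804 without shared barcodes; the other alternatives gave 705 to 1147, with 962 without TMM factors, of which 52.9% were higher in place of 71.5%.

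The number of genes called between genotypes among interferon cells was 9; these totals do not say which genes were called. There were 225 with DESeq2, 712 without a filter on low counts, 68 without TMM factors, 1 at a sum of at least 2, 48 at a sum of at least 5, 75 in cells of 2000 to 5000 UMIs, 111 without cells of other lineages, 58 with the upper limit on genes, 81 and 70 in the added fits within cells leaning to type 1 and type 3, and 0 to 630 with each library left out (630 without Csf3r+/+ library 1, 227 without Csf3r+/+ library 2 and 0 without either Csf3r-/- library). These fits and those of the interaction compare 2 libraries with 1, which is taken to vary like the others, so their counts are no measure of stability. With the number after the barcode as a replicate block it was 507, but the labels do not say that this number pairs libraries, and 2 pairs are too few to check it. The interaction, with 0 genes called, had 90 without a filter, 4 without TMM factors, 5 at a sum of at least 2, 3 with the upper limit on genes, and 25 to 122 with each library left out (122, 25, 68 and 48 without each library in turn). The share of interferon cells differed by -0.855 percentage points between genotypes. The replicate block gives -0.855 by arithmetic, with 10.7 for libraries 1 and -12.4 for libraries 2. The difference turned to 1.19 after thinning and to 1.83 in cells of 2000 to 5000 UMIs, and ranged from -16.7 to 15.01 with each library left out (3.49 without Csf3r+/+ library 1, -5.20 without Csf3r+/+ library 2, -16.7 without Csf3r-/- library 1 and 15.01 without Csf3r-/- library 2). The difference in leaning, 20.1 percentage points, stayed between 16.3 and 24.3 with each library left out and between 19.4 and 21.3 under the other alternatives.

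Of the single genes named, 1353 values between states kept their direction and side of the threshold under an alternative, 82 kept the direction alone, 3 newly passed and 34 changed sign; between genotypes 72 kept both, 18 kept the direction alone and 0 changed sign. Genes used for the leaning were left out of this tally for the fits within a leaning. Of the sign changes 14 arose in cells leaning to type 1, where Pxdc1 had a log2 fold change of 0.34, Ckb 0.15, Cysltr1 0.66, Il17re 0.55, Ltb4r1 0.63, Gm17430 -0.047, Ifngr2 0.13, S100a4 0.10, Cd40lg 0.11, Il2ra 0.31, Cd160 -0.045, Dnajb1 -0.034, Mmp9 -0.27 and Cd79b 0.45. In cells leaning to type 3, Socs1 had -0.12, Satb1 -0.0034, Hmgb2 0.15, Stmn1 0.11 and Cd8b1 0.24. Apoe had -0.34, Lyz2 -0.40 and Mmp9 -0.058 in cells of 2000 to 5000 UMIs. Without cells of other lineages, a filter that uses both genes, Apoe had -0.20 and Lyz2 -0.21. With each library left out, Scand1 ranged from -0.0021 (without Csf3r+/+ library 1) to 0.056, Stmn1 from -0.21 to 0.11 (0.10 and 0.11 without a Csf3r+/+ library), Hmgb2 from -0.097 to 0.028 (without Csf3r+/+ library 2) and Mmp9 from -0.17 (without Csf3r-/- library 1) to 0.47. Scand1 also had -0.043 without TMM factors and -0.0077 at a sum of at least 5, Stmn1 0.010 with DESeq2 and 0.061 at a sum of at least 2, and Tcf4 0.059 at the same sum. The cause of the changes outside that filter was not tested.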

Other observations

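Genes outside every list also differed between interferon cells and cells of sum 0; those below were chosen after their values were seen, among genes with a mean of at least 50 CPM over both states. Pyhin1, a member of the PYHIN family of DNA sensors, had a mean of 327 CPM in interferon cells and 64.8 CPM in cells of sum 0 (log2 fold change 2.42; all genes named here passed edgeR's test). Daxx, a nuclear protein that represses transcription, had 125 against 31.5 CPM (2.08), and Trafd1, a feedback inhibitor of innate signalling, had 143 against 36.6 CPM (2.02). Samhd1, which breaks down nucleotides and so restricts retroviruses, had 490.5 against 171 CPM (1.65), and Plac8 had 484 against 187 CPM (1.53). The pyrophosphatase Ppa1 had 126 against 60.8 CPM (1.14).

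Of genes outside the lists that were lower in interferon cells, Avpi1 had a mean of 115 CPM in interferon cells and 195 CPM in cells of sum 0 (log2 fold change -0.70). Rgcc, a regulator of the cell cycle, had 178 against 302 CPM (-0.64), the transcriptional cofactor Lmo4 had 189 against 304 CPM (-0.64), and Cd83, a surface marker of activation, had 74.3 against 121 CPM (-0.66). Lmna, which encodes lamin A/C, had 90.5 against 148 CPM (-0.53). Of all genes, with those used for the leaning kept in, only 3 were called lower over all cells and in both leanings. Ramp3 and Il17a were among them. Il17a was itself used for the leaning, so its values there are shaped by the choice of cells. Most of the lower genes named here thus did not keep their call in both leanings.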
